A study of Mus musculus with 79 samples.

Results

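Fast-twitch fibres of skeletal muscle are built from their own set of contractile proteins, and 10 genes of that set were followed here in the mouse quadriceps. They were the myosin heavy chains Myh2, Myh1 and Myh4, the regulatory light chain Mylpf, the troponin subunits Tnni2, Tnnt3 and Tnnc2, the Z-disc protein Actn3, the calcium pump Atp2a1 and the calcium store protein Casq1. All 10 were found by symbol among 22335 named genes, each on 1 probeset of the 35556 on the array, so no choice between probesets was needed. Quadriceps RNA had been hybridised to Affymetrix Mouse Gene 1.0 ST arrays from males of the BXD family, inbred lines made from crosses of C57BL/6J and DBA/2J, and from both parents. One group was fed chow (CD, Harlan 2018) and the other a high fat diet (HFD, Harlan 06414) from 8 weeks of age, and both were fasted overnight and sacrificed at 29 weeks. The 42 CD arrays covered 42 strains, and the 37 HFD arrays covered 37 of the same strains, which left 5 without an HFD partner. RNA of about 5 males of a strain was pooled for each array. Animals of one strain were therefore never compared with each other, and strain and pool cannot be told apart within a diet.

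The heavy chain is the motor of the thick filament, and its isoform sets how fast a fibre contracts and how much fuel it burns. Adult mouse limb muscle uses the slow chain (Myh7) and the fast chains IIa (Myh2), IIx (Myh1) and IIb (Myh4), which run in that order from oxidative and fatigue-resistant to glycolytic and fastest. Most of the mouse quadriceps is made of fast glycolytic fibres, with IIa and slow fibres gathered in its deeper part.

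Deposited values were scores on a log-type scale, with the mean of each array at 8.0 and its SD at 2.0. The log base was not given, so differences are stated in score units. All 10 genes were among the brightest on every array, between 11.991 and 15.336, and the lowest rank of any of them on any array was the 96.6th percentile (Myh2). Fast muscle markers were thus abundant on all 79 arrays, as the tissue label implies. Probe brightness differs between genes, so the order of 2 genes' scores is not read as an order of their RNA. As the samples are bulk tissue, fewer fibres of a type and less RNA per fibre cannot be told apart.

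Both diets were run in each of the 2 array batches named in the titles (18 CD with 17 HFD, then 24 CD with 20 HFD), and RNA had been extracted at 2 times in sets of 35 and 44. A limma batch term called 0 probesets, with 0 at an unadjusted p below 0.05 (smallest 0.266). That is fewer than chance alone would leave, and whether the values had been corrected for batch before deposit was not given in the sources used here. The arrays of strain BXD63 stood apart. Over 1154 olfactory receptor probesets the diet profile of BXD63 correlated with the mean of the other strains at r = -0.537, while the other 36 strains gave 0.421 to 0.649. The other strains thus shared a diet profile over these probesets. Its source and its part in the diet differences below were not tested. Whether the diet labels of the BXD63 arrays are the right way round was not tested either. Fast fibre scores of BXD63 were inside the range of the other strains for all 10 genes (Myh2 was 13.391 in CD and 13.407 in HFD), and its omission is given where it changed a call.

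The myosin genes Myh2, Myh1 and Myh4 lie next to each other on chromosome 11, between the embryonic chain gene Myh3 and the perinatal chain gene Myh8. Their coding sequences are close to identical over long stretches, so a probeset of one may take signal from another, and the values of the 3 are uncertain to that extent. The stretches below run from 44 to 15 bases before each RefSeq start on the plus strand (GRCm38.p6). They differ between the genes, and any link to the spread of the 3 genes among arrays was not tested. Capitals mark the letters TATAAA, the core of an element that positions RNA polymerase II.
Myh2 (chr11:67170983-67171012): attccttttgacttaagaaagaagaggcag
Myh1 (chr11:67200058-67200087): catatttgatccTATAAAagtaccccttgg
Myh4 (chr11:67237768-67237797): gcagaacagcctcTATAAAagtgaagctgg
The Myh1 motif ran from position -32 to -27 and the Myh4 motif from -31 to -26, and the Myh2 stretch held none. RefSeq promoters of 300 bases were at hand for 7 of the 10 genes, and TATAAA on either strand was in 3 of the 7 (Myh2, Myh1 and Myh4), against 13.6% of 32851 promoters. CANNTG, the E-box that myogenic factors bind, was in 5 of the 7 against 72.3%. CATTCC, an MCAT element, was in 2 of the 7 against 14.7%. These matches are a description of letters and were not tested for function.

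Myh2, the IIa chain, varied most among the fast chains. In CD its score was lowest in BXD81 at 12.177, had a median of 13.513 and was highest in BXD50 at 13.983, with a mean of 13.42 ± 0.39 (SD, n = 42). In HFD it was lowest in BXD56 at 11.991, had a median of 13.606 and was highest in BXD71 at 14.178, with a mean of 13.58 ± 0.35 (SD, n = 37). One array per diet sat far below the rest, and they came from different strains. BXD81 rose from 12.177 in CD to 13.920 in HFD, while BXD56 went from 13.464 to 11.991. After BXD81, the lowest CD array was that of C57BL/6J at 12.762, and after BXD56 the lowest HFD array was BXD62 at 13.176. Read as log2, the whole range would be a nominal 3.50-fold in CD and 4.55-fold in HFD. The SD of Myh2 within a diet was larger than that of 96.3% of the probesets in the brightest decile (those with a mean score of at least 10.611).

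Myh1, the IIx chain, had a narrower range. Its CD scores ran from 13.543 (BXD81) through a median of 14.039 to 14.281 (BXD65), with a mean of 14.01 ± 0.17 (SD, n = 42). Its HFD scores ran from 13.682 (BXD49) through 14.072 to 14.378 (BXD84), with a mean of 14.05 ± 0.17 (SD, n = 37). BXD81 on CD was thus lowest in both the IIa and the IIx chain.

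Myh4, the IIb chain of the fastest glycolytic fibres, hardly varied. In CD it went from 14.658 (BXD85) through a median of 14.808 to 14.881 (BXD55), with a mean of 14.80 ± 0.05 (SD, n = 42). In HFD it went from 14.588 (BXD79) through 14.770 to 14.934 (BXD103), with a mean of 14.77 ± 0.07 (SD, n = 37). Its SD within a diet exceeded that of only 0.225% of the brightest decile. Array maxima were 15.458 to 16.107, so Myh4 lay near the top of the scale, and whether the bright end of the scale is compressed was not tested.

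**Figure D1:**
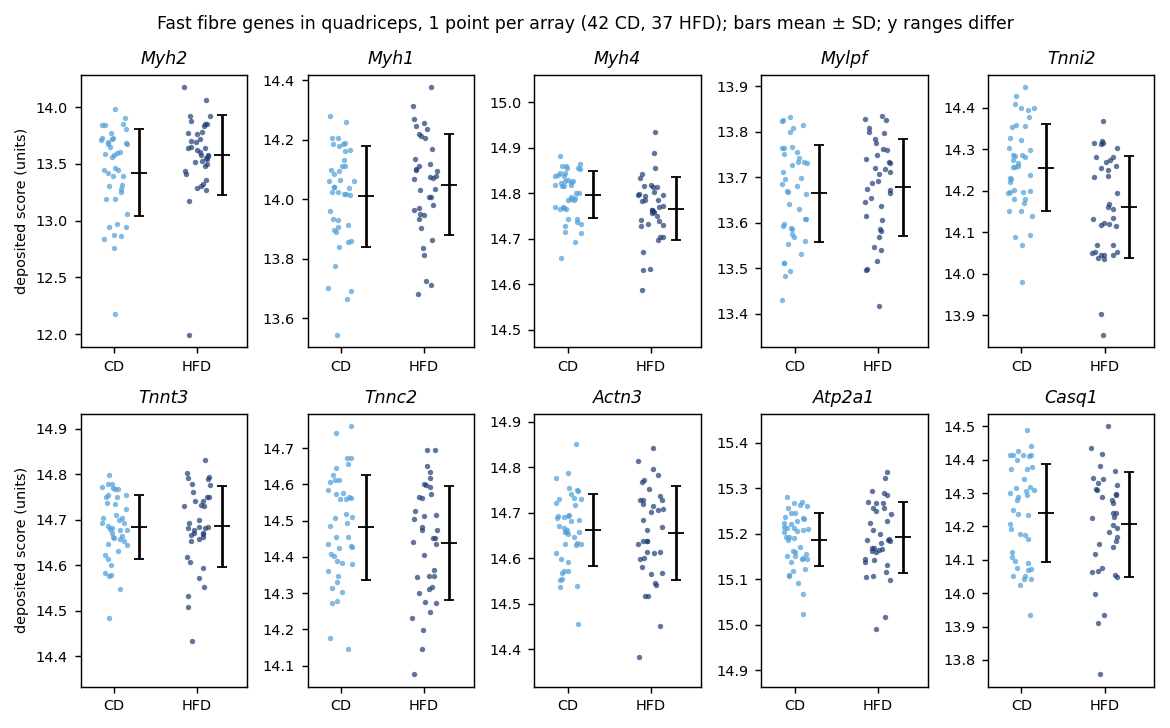
Deposited scores of the 10 genes, 1 point per array, for 42 CD (light) and 37 HFD (dark) arrays, with bars at the mean ± SD. The y axes are in score units and their ranges differ between panels. Myh2 has 1 array far below the rest on each diet (12.177 in CD, 11.991 in HFD), while the Myh4 scores lie between 14.588 and 14.934.

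Mylpf, the regulatory light chain that binds the neck of fast myosin, had CD scores from 13.430 (BXD69) through 13.676 to 13.833 (BXD80) and HFD scores from 13.417 (BXD79) through 13.692 to 13.834 (BXD55). The diets covered almost the same range.

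The fast troponin complex switches the thin filament on when calcium binds. Tnni2, its inhibitory subunit, scored 13.981 (BXD85) to 14.450 (C57BL/6J) in CD, with a median of 14.258 and a mean of 14.26 ± 0.11 (SD, n = 42). In HFD it scored 13.852 (BXD69) to 14.367 (BXD56), with a median of 14.156 and a mean of 14.16 ± 0.12 (SD, n = 37). The ranges overlapped, but the HFD scores were set lower. Tnnt3, which ties the complex to tropomyosin, ran from 14.484 to 14.798 in CD and from 14.434 to 14.832 in HFD. Tnnc2, the calcium sensor, ran from 14.146 to 14.760 in CD and from 14.076 to 14.695 in HFD. For all 3 troponin genes the lowest CD array was BXD85, the highest CD array was C57BL/6J and the lowest HFD array was BXD69.

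Actn3, the alpha-actinin of fast Z-discs, scored between 14.456 (BXD97) and 14.852 (C57BL/6J) in CD and between 14.383 (BXD79) and 14.842 (BXD103) in HFD. Atp2a1, the SERCA1 pump that returns calcium to the sarcoplasmic reticulum, ran from 15.025 (BXD64) to 15.282 (BXD83) in CD and from 14.992 (BXD79) to 15.336 (BXD48) in HFD. Casq1, the calcium-binding protein inside the reticulum of fast fibres, ran from 13.935 (BXD97) to 14.490 (BXD100) in CD and from 13.757 (BXD79) to 14.500 (BXD48) in HFD. The HFD arrays of BXD79 and BXD69 were the 2 lowest for Myh4, Tnni2, Tnnt3, Actn3, Atp2a1 and Casq1. Neither array was low in Myh2, at 13.555 in BXD79 and 13.697 in BXD69.

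The diet comparison asks whether HFD moved the fast programme. It was made with limma over all probesets with diet and batch as terms, and p-values were adjusted over all 35556. Of the 10 genes, 1 passed an adjusted p of 0.05, which was Tnni2, against 38.1% of all probesets (18.9% higher and 19.3% lower in HFD) and 24.7% of the brightest decile. Tnni2 was lower in HFD by a difference of -0.10 (SE 0.026, 95% interval -0.15 to -0.04, limma adjusted p = 0.00251), and it was lower in 27 of 37 paired strains. It passed again when any one of the 42 strains was left out (limma adjusted p 0.00102 to 0.00603). Within array batch 2 alone, where 24.4% of all probesets passed, it missed the threshold at a difference of similar size (-0.08, limma adjusted p = 0.121). Within batch 1, where 12.6% of all probesets passed, it passed (-0.11, limma adjusted p = 0.0316).

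Myh2 had the largest diet difference in size, 0.16 higher in HFD, but also the widest error (SE 0.082, 95% interval -0.004 to 0.32), and did not pass (limma adjusted p = 0.118). It was higher in 24 and lower in 12 of the 37 paired strains. Its size depended on single strains at both ends. Without BXD56 the difference was 0.21 and passed (limma adjusted p = 0.0189), while without BXD81 it was 0.12 (limma adjusted p = 0.219). Myh4 differed by -0.03 (SE 0.015, 95% interval -0.061 to 0.000096, limma adjusted p = 0.110) and was lower in 25 of 37 strains. When arrays were quantile normalized again, with 37.4% of all probesets called, Myh4 passed at -0.04 (limma adjusted p = 0.000534), while with arrays centred on the median its difference was -0.01 (limma adjusted p = 0.442). Myh1 differed by 0.04 (SE 0.038, limma adjusted p = 0.431).

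The remaining 6 genes had limma adjusted p-values of 0.344 to 0.955. The interval of the difference was -0.036 to 0.063 for Mylpf, -0.036 to 0.040 for Tnnt3 and -0.111 to 0.026 for Tnnc2. It was -0.050 to 0.036 for Actn3, -0.029 to 0.038 for Atp2a1 and -0.103 to 0.035 for Casq1. Differences larger than these limits are outside the 95% intervals. The median difference of the 10 genes was -0.002, beside -0.0007 over all probesets.

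**Figure D2:**
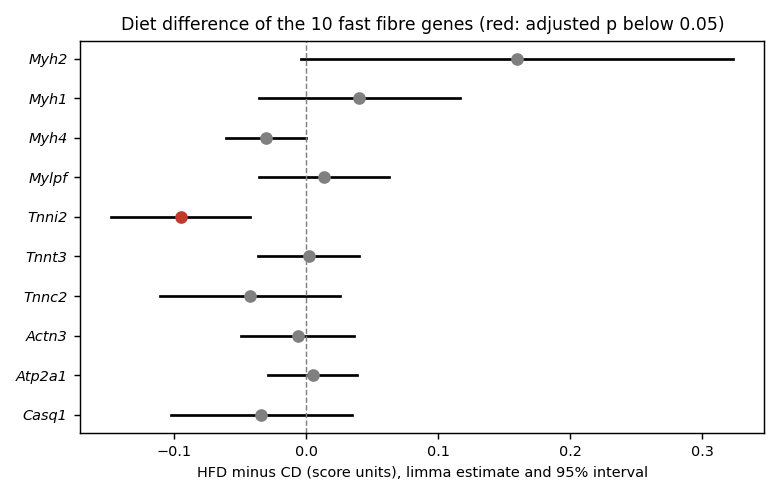
HFD minus CD in score units for the 10 genes, with the limma estimate as a point and its 95% interval as a line. The interval of Tnni2 (red), from -0.15 to -0.04, lies wholly below 0, and that of Myh2, from -0.004 to 0.32, is the widest.

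Marker lists of other cells were counted in the same fit, in which 38.1% of all probesets passed and 18.9% were higher in HFD. Of 8 adipocyte genes, 5 were higher (among them the adipokines Lep by 1.58 and Adipoq by 0.54, and the lipid droplet gene Cidec by 0.75) and 1, Cfd, was lower by a difference of -0.61. The mean level of the list was 9.20 to 10.99 over CD arrays and 9.30 to 11.25 over HFD arrays. The lowest mean of an adipocyte gene over all 79 arrays was 9.11, and Lep averaged 8.37 in CD. Macrophage genes were higher in 4 of 6 (Cd68 by 0.39) and endothelial genes in 3 of 5 (Kdr by 0.20). Genes that rise on denervation were higher in 4 of 7 (Ncam1 by 0.17), while Myog of the same list was lower without passing (-0.11, limma adjusted p = 0.0509). Of the called ones, Chrnd and Chrng averaged 8.11 and 8.04 in CD, close to the array mean of 8.0. Smooth muscle genes were higher in 2 of 4. Of 6 red blood cell genes 1 was higher, and of 6 fibroblast and tendon genes 1 was higher and 1 lower. Their part in the Tnni2 difference was not tested.

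The same fit placed the fast genes beside the rest of the contractile programme. Of 18 further fast fibre and excitation-contraction genes, 3 passed, a smaller share than the 38.1% of all probesets and the 24.7% of the brightest decile, and all 3 were lower in HFD, namely the calcium release channel Ryr1 (-0.10, SE 0.027), the reticulum protein Srl (-0.10, SE 0.020) and the Z-disc protein Myoz1 (-0.08, SE 0.026). The light chain Myl1 and the calcium buffer Pvalb did not pass, at 0.03 and 0.04. Of 11 slow fibre genes, 3 passed (27.3%), beside 38.1% of all probesets and 24.7% of the brightest decile. The shares of these short lists were not compared by a test. The reticulum protein Casq2 was higher by 0.27 (SE 0.099), the slow tropomyosin Tpm3 was higher by 0.16 (SE 0.042), and Myh7b, an ancient slow myosin, was lower by a difference of -0.09 (SE 0.031). The slow chain Myh7 (-0.07, SE 0.18) and slow troponin I, Tnni1 (-0.25, SE 0.17), did not pass. The median difference of the 11 slow fibre genes was -0.09, although 2 of the 3 that passed were higher.

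Regulators of the fast programme that passed included Sox6, a repressor of slow genes, which was lower in HFD by a difference of -0.11 (SE 0.027), and the transcriptional cofactor Eya1, which was higher by 0.11 (SE 0.038). Of the neighbours of the fast myosins, embryonic Myh3 was higher by 0.09 (SE 0.029, limma adjusted p = 0.0113), while Myh8 (-0.04) and the extraocular chain Myh13 (0.01) did not pass. Myh3 had a mean score of 7.31 in CD and 7.40 in HFD, below the array mean of 8.0.

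The balance of IIa against IIx and IIb was read as the difference of 2 scores within an array. Such a difference has no meaningful zero, so its change between diets and its spread among strains are given. In CD, Myh2 minus Myh4 was lowest in BXD81 at -2.642, had a median of -1.262 and was highest in BXD97 at -0.784. In HFD it was lowest in BXD56 at -2.843, had a median of -1.159 and was highest in BXD71 at -0.636. The same strains held the low end of Myh2 minus Myh1, at -1.366 for BXD81 in CD and -1.734 for BXD56 in HFD. Since Myh4 hardly varied, the balance mostly followed Myh2.

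Over the 37 paired strains the balance was higher in HFD for all 3 pairs. Myh2 minus Myh4 was higher by 0.20 ± 0.53 (SD, n = 37) and was higher in 26 of 37 strains. Myh2 minus Myh1 was higher by 0.12 ± 0.37 (SD, n = 37), in 25 of 37, and Myh1 minus Myh4 by 0.07 ± 0.21 (SD, n = 37), in 28 of 37. Exchanging diets within strains (2-sided permutation test, 100000 draws) gave p = 0.0274, 0.0460 and 0.0428, and 0.0460 for each after adjustment over the 3, which share genes and are not independent. Without BXD63 the adjusted p was 0.0536 for all 3, and with 1 strain left out at a time it was below 0.05 in 11, 9 and 10 of 37 omissions, respectively. Within batches, the shifts were 0.26, 0.17 and 0.09 for the 12 strains with both arrays in batch 1 (permutation test, adjusted p = 0.0686, 0.0998 and 0.0359) and 0.21, 0.14 and 0.07 for the 17 with both in batch 2 (adjusted p = 0.293 for each). The direction was the same in each of these settings, while the call was not.

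**Figure D3:**
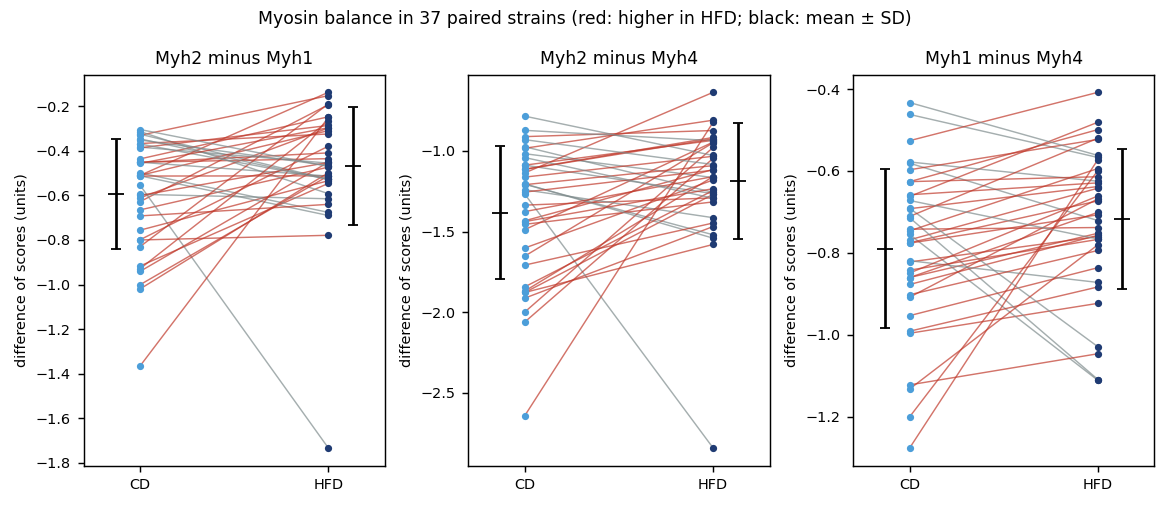
Difference of 2 myosin scores (score units) in the 37 paired strains on CD and HFD, with a line for each strain (red where HFD was higher, grey where not) and the mean ± SD in black. More lines rise than fall in each panel (25, 26 and 28 of 37), and BXD81 (CD, -2.642) and BXD56 (HFD, -2.843) stand far below the rest for Myh2 minus Myh4.

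The strain comparison asks whether a strain kept its level on both diets. In a limma fit with strain, diet and batch, 0 of the 10 genes passed for strain, against 13.6% of all probesets and 35.8% of the brightest decile. At an unadjusted p below 0.05, 3 genes were found, Mylpf (limma p = 0.0127), Myh1 (p = 0.0215) and Casq1 (p = 0.0424). After repeated quantile normalization, with 14.6% of all probesets called, Mylpf (limma adjusted p = 0.0347) and Casq1 (0.0383) passed. Mylpf also passed with the probesets below the median level removed (0.0366, with 30.4% called). The estimated share of variance between strains was 42.2% for Mylpf, 32.4% for Myh1 and 12.5% for Myh4. It was 3.0% for Myh2, the chain with the widest range, beside medians of 14.1% over all probesets and 35.6% over the brightest decile.

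Correlation of CD with HFD over the 37 strains, with batch means removed, again put Mylpf highest and Myh2 lowest among the 10 genes. It was computed for the 10 genes and 3 balances, and 0 of the 13 values of r passed after Benjamini-Hochberg adjustment. Mylpf had the largest Pearson r, 0.417 (permutation p = 0.0102, adjusted 0.132), with Spearman rho 0.424 (p = 0.00925, adjusted 0.0601). With BXD69 and BXD65 left out, whose CD scores lay farthest from the median, r was 0.358, and it was 0.395 within batch 1 and 0.323 within batch 2. Myh2 had r = 0.042 (permutation p = 0.805, adjusted 0.831) and rho = 0.146 (p = 0.388, adjusted 0.420), and r was 0.190 without BXD81 and C57BL/6J. Its r was 0.083 within batch 1, -0.055 within batch 2 and 0.718 for the 8 strains with arrays in different batches. The order of the 10 genes depended on the strains kept. Without the 2 strains farthest from each gene's CD median, Myh1 had the highest r (0.523) and Myh4 the lowest (-0.017).

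Myh1 had r = 0.283 (permutation p = 0.0901, adjusted 0.234) and rho = 0.363 (p = 0.0278, adjusted 0.0974). Its relation rested on which strains were counted, since r was 0.523 without BXD81 and BXD70, 0.640 among the 12 strains with both arrays in batch 1, -0.037 among the 17 with both in batch 2 and 0.625 among the 8 with arrays in different batches. Myh1 minus Myh4 gave r = 0.323 (permutation p = 0.0522, adjusted 0.201) and was the one measure whose rank correlation passed, at rho = 0.474 (p = 0.00323, adjusted 0.0420). Its r was 0.741 within batch 1, 0.030 within batch 2 and 0.664 for the 8 strains with arrays in different batches. The median r of the 10 genes was 0.242, between 0.140 for all probesets and 0.362 for the brightest decile.

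C57BL/6J and DBA/2J, the parents of the panel, were compared in the fit with strain, diet and batch, with 1 array per diet each, so the spread was borrowed from all paired strains. None of the 10 genes passed, against 1.26% of all probesets. Actn3 was higher in C57BL/6J by 0.20 (SE 0.086, limma p = 0.0237, adjusted 0.439), the only one at an unadjusted p below 0.05. Myh2 scored 12.762 in CD and 13.715 in HFD in C57BL/6J and 13.807 and 13.649 in DBA/2J. The parental difference of Myh2 was -0.49 (SE 0.36, limma adjusted p = 0.865), and the gap lay in the CD arrays.

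Among the 10 genes, Myh2 and Myh1 rose and fell together over arrays of one diet. Over the 42 CD arrays, with batch means removed, r was 0.895 and rho 0.877, and over the 37 HFD arrays r was 0.683 and rho 0.655 (permutation p = 1e-05 each, the smallest 100000 draws can give, adjusted 3.6e-05 over 18 relations). Without the 2 arrays farthest from the Myh2 median r was 0.851 in CD and 0.688 in HFD, and within batches it was 0.775 and 0.947 in CD and 0.677 and 0.769 in HFD. Shared probe signal between the 2 neighbours is part of what this value can hold, and its part was not tested.

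No relation of Myh2 with Myh4 passed, with r = -0.203 in CD (rho -0.255, permutation p = 0.197, adjusted 0.337) and -0.004 in HFD (rho 0.057, p = 0.978, adjusted 0.978). After repeated quantile normalization r was -0.026 in CD and -0.296 in HFD (unadjusted permutation p = 0.872 and 0.0750). Myh1 and Myh4 gave r = -0.168 in CD (rho -0.132, permutation adjusted p = 0.434) and 0.170 in HFD (rho 0.224, adjusted p = 0.435), and both signs turned after repeated quantile normalization (0.085 and -0.075).

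**Figure D4:**
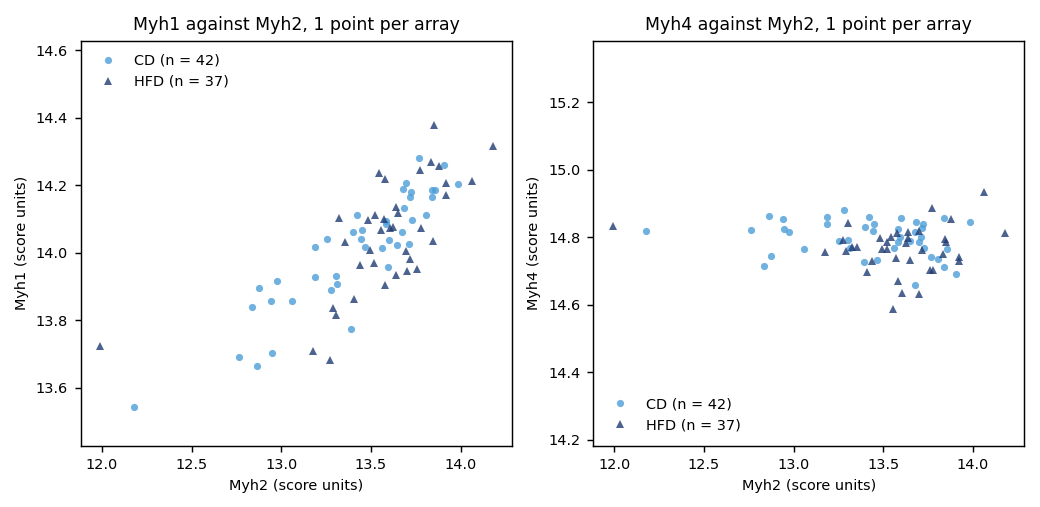
Scores of Myh1 (left) and Myh4 (right) against Myh2, 1 point per array, for 42 CD (circles) and 37 HFD (triangles) arrays, with y axes of equal span in score units. Myh1 follows Myh2 (r = 0.895 in CD and 0.683 in HFD), whereas Myh4 stays level over the whole range of Myh2 (r = -0.203 and -0.004).

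Myh7 and Tnni1, the only slow fibre genes set against the myosins, went with the IIa chain. Myh2 correlated with the slow chain Myh7 at r = 0.736 in CD (rho 0.791, permutation adjusted p = 3.6e-05) and 0.386 in HFD (rho 0.395, adjusted p = 0.0284). With Tnni1 it gave r = 0.706 in CD (rho 0.748, permutation adjusted p = 3.6e-05) and 0.451 in HFD (rho 0.499, adjusted p = 0.00671). Leaving out the 2 arrays farthest from the Myh2 median kept r at 0.773 and 0.348 with Myh7 and at 0.709 and 0.401 with Tnni1. All values within batches were above 0, from 0.327 to 0.773. Myh1 was related to Myh7 in CD (r = 0.649, rho 0.685, permutation adjusted p = 3.6e-05), while in HFD r was 0.047 (rho 0.014, adjusted p = 0.830). The change between diets was not tested. The 4 relations of Myh4 with Myh7 and Tnni1 did not pass (r from -0.210 to -0.063). Without BXD79 and BXD103 the HFD values were -0.348 for Myh7 and -0.346 for Tnni1 (unadjusted permutation p = 0.0406 and 0.0408). After repeated quantile normalization the HFD values were -0.204 and -0.380 (unadjusted permutation p = 0.227 and 0.020). Within batch 1 they were -0.369 and -0.489, and within batch 2 0.094 and -0.013.

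The troponin genes, Actn3, Atp2a1 and Myh4 were positively correlated with each other, and Mylpf less so (in CD 0.33 with Tnnt3, 0.37 with Casq1 and 0.49 with Myh4). In CD, r was 0.89 for Tnni2 with Tnnc2, 0.87 for Tnni2 with Tnnt3, 0.87 for Tnni2 with Actn3 and 0.87 for Myh4 with Atp2a1. In HFD the same pairs gave 0.91, 0.88, 0.83 and 0.87. Over all 45 pairs of the 10 genes the median r was 0.537 in CD and 0.573 in HFD, with 23 and 27 pairs at 0.5 or above. These are descriptions over arrays that share their scaling. When the arrays were quantile normalized again the medians were 0.277 and 0.327, and Myh4 with Atp2a1 gave 0.52 and 0.46, while Tnni2 with Tnnc2 gave 0.82 and 0.86. Some pairs lost or turned their relation in CD under the same scaling. Myh4 with Casq1 gave 0.08 in place of 0.62, and Mylpf gave -0.14 with Myh4, -0.25 with Atp2a1 and -0.13 with Tnnt3. The size of the correlations, the sign of some and the genes that moved together thus depended on the scaling of the arrays.

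**Figure D5:**
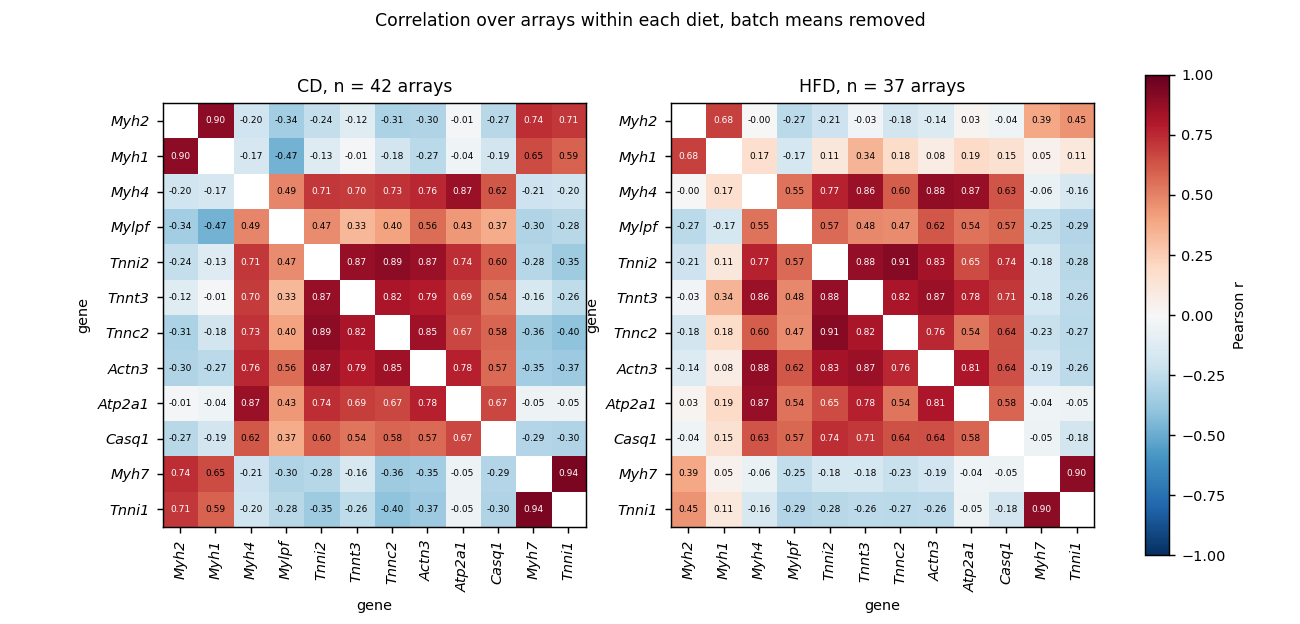
Pearson r between the 10 fast genes and the slow genes Myh7 and Tnni1 over arrays within CD (left, n = 42) and HFD (right, n = 37), batch means removed; both axes list genes and the colour scale runs from -1 to 1. Myh2 and Myh1 form one pair (0.90 and 0.68), the pairs among the genes from Myh4 to Casq1 are all above 0 on this scaling, and Mylpf with Myh1 is the lowest pair of the 10 in CD (-0.47).

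A search over 22334 other genes, on residuals of diet and batch over all 79 arrays, named the genes whose pattern was most like each myosin. For Myh2 these were the lactate dehydrogenase subunit Ldhb (r = 0.871), the slow-type myosin-binding protein Mybpc1 (0.854) and the M-band protein Myom3 (0.841), and repeated quantile normalization named the same 3. For Myh1 they were the oxygen carrier myoglobin, Mb (0.862), then Myh2 (0.800) and the sodium pump regulator Fxyd6 (0.797), and repeated quantile normalization put Mybpc1 (0.773) in the place of Fxyd6. For Myh4 they were the thin filament ruler Neb (0.894), Atp2a1 (0.868) and Actn3 (0.831). The Myh4 neighbours changed with repeated quantile normalization, to Tnnt3 (0.670), Cops6 (0.649) and Eif3c (0.614).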

How the data were processed

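The authors deposited 1 score per probeset and array, made with Affymetrix Expression Console per the labels. The summarization, log base and any batch correction were not given in the sources used here. The members and lists were chosen with earlier results of these data known. Named genes were the 10 members, Myh7, Tnni1, Myh3, Myh8 and Myh13, the 3 genes most like each myosin, and up to 4 called genes per list with the largest diet differences. Myl1, Pvalb and Myog were named after their values were seen. The CD column headed BXD92 was matched to strain BXD92a. Diet, strain and parental terms were fitted with limma 3.58.1 in R 4.3.3 on the scores of all probesets, with Benjamini-Hochberg adjustment. The design had the labels' diet and batch as terms, and the Student's t-test of the study's methods was an alternative. Permutation tests used numpy 2.4.6 with 100000 draws and a fixed seed, and scripts were tested on simulated data. The strain named in the labels pairs the arrays: deviations of a strain's 2 arrays correlated with a median r of 0.214, and 4 of 37 strains were below 0.1. The number of arrays limits the precision. P-values of the diet fit and of the correlations rest on the spread between pools of strains. Those of the strain and parental terms rest on the residual after strain, diet and batch, which is the disagreement between the arrays of one strain. Those of the myosin balance rest on the diet differences within strains. The deposited table names no genome build, and RefSeq coordinates apply to the printed sequences only. The result of 1 gene of the regulator list is not reported here.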

Additional observations from a re-analysis of the deposited data

How the results depend on the processing

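The number of members called between diets was 0 in batch 2 alone, 2 after repeated quantile normalization (Tnni2 and Myh4) and 1 to 2 with 1 strain left out at a time, a set of alternatives chosen after seeing the data. With strain as a replicate block, the paired fit gave Tnni2 at -0.086 (limma adjusted p = 0.00616) and changed no call. Signs of small differences turned for Mylpf (-0.00997) and Tnnt3 (-0.0158) after quantile normalization, for Tnnt3 in batch 1 (-0.0109), and for Atp2a1 in batch 1 (-0.00147) and after quantile normalization (-0.00601). Actn3 turned in batch 2 (0.00664), with the strain block (0.000884), in paired strains without it (5.74e-05) and with arrays centred on the median (0.0105). Leave-one-out ranges were -0.00465 to 0.00962 for Tnnt3 and -0.0126 to 0.00127 for Actn3. None of these values passed. Between strains, 2 members passed after quantile normalization and 1, Mylpf, with dim probesets removed. Parental Casq1 turned to -0.0177 after quantile normalization. For Myh2 minus Myh1, Myh2 minus Myh4 and Myh1 minus Myh4, the shift between diets no longer passed without BXD63 (0.130, 0.201 and 0.0710), in batch 2 (0.139, 0.213 and 0.0748), after quantile normalization (0.121, 0.187 and 0.0655) and over all 79 arrays without the block (0.119, 0.189 and 0.0701). In batch 1 the first 2 did not pass (0.167 and 0.261). Leave-one-out ranges were 0.0970 to 0.161, 0.152 to 0.246 and 0.0547 to 0.0852. After quantile normalization r of Myh1 and Myh4 turned to 0.0847 in CD and -0.0753 in HFD, and the median r of member pairs moved to 0.277 and 0.327. The cause of these changes was not tested.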
